A study of Mus musculus with 67 samples.

Results

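The livers described here came from mice labelled Rev-erb[alpha]/[beta]-liverdoubleKO (ReverbLDKO), in which both Rev-erb genes were deleted in the liver per the label, fed ad libitum and sampled in the dark or the light phase. The 6 libraries, of 67 in the series, were chosen by genotype, feeding group and sampling time: 3 dark libraries at zeitgeber time (ZT, hours from the start of the light phase) 15, 18 and 21, and 3 light libraries at ZT3, ZT6 and ZT9, with 1 library at each time. Libraries at ZT12 and ZT24 stand between the phases and belong to neither. Of the 67, 8 other libraries labelled ReverbLDKO came from mice under time-restricted feeding, of which the 6 at the same times are set beside the ad libitum ones. The 6 libraries at the same times from Cry1Cry2 double KO mice (CryDKO, no tissue given in the label) fed ad libitum form another comparison, and 8 WT libraries fed ad libitum, at ZT16 and ZT20 for dark and ZT4 and ZT8 for light with 2 libraries a time, form the control. WT times therefore differ from the ReverbLDKO times by 1 to 2 h. All mice were C57BL/6 at an age of 24 weeks, after a high-fat diet lasting 12 weeks. The Cre driver, the lighting schedule, the hours of food access and the number of animals behind a library are not given in the sources used here. Nor do the labels say that libraries are separate animals, and the 2 WT libraries at a time may be technical replicates. The p-values measure the spread between libraries within groups, pooled over the 67 libraries. Libraries of a phase were taken at different times, so this spread also holds change within the phase.

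Rev-erb alpha and beta, encoded by Nr1d1 and Nr1d2, are nuclear receptors that bind heme and repress transcription. In the circadian clock they compete with the ROR receptors, which activate the same genes, and so shape the daily rhythm of Arntl (BMAL1), Clock, Npas2, Nfil3 and Cry1. In the liver they are also known for repressing genes of lipid and bile acid metabolism, and liver RNA rhythms are driven both by this clock and by the daily cycle of feeding and fasting.

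Each library measured polyadenylated RNA, in FPKM (fragments per kilobase of transcript, scaled to library size, as the deposited table is labelled). Depth, recovered from the spacing of low values, was 16.5 to 35.0 M reads (M, 1e6) in the dark and 12.6 to 20.1 M reads in the light libraries, against 5.38 to 35.0 M reads over the series. Nr1d1 and Nr1d2 were measured at 10.6 to 66.4 and 10.7 to 20.6 FPKM in the 6 libraries labelled ReverbLDKO. A deletion of some exons can leave reads on the others, so these values do not check the deletion. The groups differed in the level of mt-Nd6, a gene on the light strand of mitochondrial DNA, relative to mt-Nd5 on the opposite strand. This ratio was 9.17% to 11.4% in dark and 11.5% to 13.7% in light ad libitum libraries, against 0.633% to 2.56% in ReverbLDKO libraries under restricted feeding, 5.36% to 6.35% in CryDKO and 0.55% to 1.87% in WT dark and light libraries fed ad libitum. Over the series it ran from 0.55% to 35.8%. Its part in the differences between groups was not tested. Transcripts of exocrine pancreas, a tissue next to the liver, summed over a list of 15 markers to 41.3, 38.4 and 55.1 FPKM in the dark libraries at ZT15, ZT18 and ZT21, against 228, 74.7 and 946 FPKM in the light libraries at ZT3, ZT6 and ZT9. At ZT6, ZT15 and ZT18 10 of the 12 markers with a mean of at least 1 FPKM, among them Ctrb1, Prss2 and Pnlip, were at 0 FPKM. Of 14 immune cell markers, none separated the phases, and hepatocyte markers summed to 60880 to 62770 FPKM in the dark and 57010 to 61380 FPKM in the light. In bulk liver, fewer cells of a type and less RNA per cell cannot be told apart.

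In ReverbLDKO livers fed ad libitum, the dark minus light differences of most genes were small. Of 9958 genes averaging 1 FPKM or more, none passed an adjusted p of 0.05 in limma on log2(FPKM + 1) (0% called). All 67 libraries were in 1 fit. An unadjusted p under 0.05 was found for 176 genes, fewer than that threshold gives on average where nothing differs. The spread was pooled over all groups, so the lack of calls does not show that the phases are alike. The median absolute difference between phases was 0.10 on the log2(FPKM + 1) scale, and 9 in 10 genes lay at or below 0.30. In the same fit, restricted feeding gave 172 genes in ReverbLDKO livers (1.73% called; median absolute difference 0.18), CryDKO livers fed ad libitum 3 (0.0301% called; 0.11) and WT livers 3135 (31.5% called; 0.34), a count that was 168 without WT ZT16 replicate 2, 976 without ZT4 replicate 1 and 1782 without ZT8 replicate 1. This WT ZT16 replicate 2 had the fewest reads of the series, 5.38 M, and the highest sum of FPKM, 1097495. The part of its depth and sum in the WT values was not tested. Called genes in ReverbLDKO livers depended on the fit: 4 (0.0402%) when the 6 libraries were fitted alone, and 694 (6.97%; 300 higher, 3.01%, and 394 lower in the dark, 3.96%) when libraries were weighted by their spread. All 3 dark libraries were above all 3 light libraries at 799 genes (8.02%) and below them at 1010 (10.1%). A count of separated genes can only stay or grow when a library is left out: with 1 library left out at a time, the shares were 11.1% to 14.3% above and 12.8% to 19.7% below. The descriptions by gene group that follow are read against these shares.

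**Figure D1:**
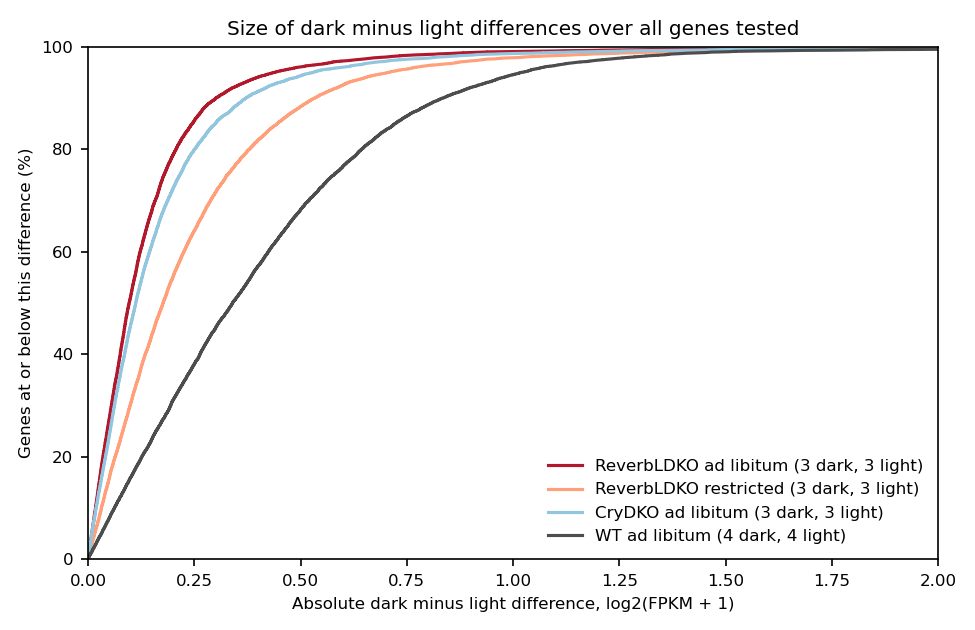
Cumulative share of the 9958 genes tested (vertical axis, %) at or below an absolute dark minus light difference (horizontal axis, log2(FPKM + 1)), 1 line for each of 4 groups of libraries. The line of ReverbLDKO livers fed ad libitum (median 0.10) rises first, close to that of CryDKO livers (0.11), followed by ReverbLDKO under restricted feeding (0.18) and WT (0.34).

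Among the activators of the clock loop and the activator-side genes that Rev-erb is known to repress, 6 genes were measured, 2 of which, among them Npas2, had all dark above all light libraries (4 without ZT3) and none the reverse. Arntl, which encodes the CLOCK partner BMAL1, had 11.4, 11.0 and 12.4 FPKM at ZT15, ZT18 and ZT21, against 13.5, 11.5 and 11.6 FPKM at ZT3, ZT6 and ZT9, and the phases overlapped. Its log2 difference was −0.07 ± 0.57 (SE). Clock lay between 5.23 and 6.08 FPKM in the dark and 4.76 and 5.37 FPKM in the light, and Rora, a ROR receptor, between 6.33 and 7.32 FPKM in the dark and 5.26 and 7.32 FPKM in the light. Both overlapped between the phases. Nfil3, a repressor of D-box genes, had 33.4, 36.4 and 35.7 FPKM in the dark and 41.2, 37.8 and 33.2 FPKM in the light. Npas2, a relative of Clock, had 5.06, 3.59 and 4.72 FPKM in the dark and 3.49, 3.03 and 2.44 FPKM in the light, with a log2 difference of 0.45 ± 0.31. All 3 dark values of Npas2 were above all 3 light ones, though those at ZT18 and ZT3 were almost equal.

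Cry1, a repressor of CLOCK and BMAL1 that is itself a Rev-erb target, differed from WT in its change between the phases. ReverbLDKO livers had 22.1, 16.7 and 16.6 FPKM in the dark and 12.0, 13.7 and 18.2 FPKM in the light, and the ZT9 library lay above 2 of the dark ones. WT livers had 14.8 to 18.8 FPKM in the dark and 1.75 to 3.65 FPKM in the light, without overlap. The dark ranges of the genotypes overlapped, and the light levels of ReverbLDKO livers were all above those of WT livers. The log2 difference between phases was 0.32 ± 0.21 in ReverbLDKO livers and 2.21 ± 0.19 in WT livers, and the difference of the differences was −1.89 ± 0.28 (limma, adjusted p = 0.000329). Under restricted feeding, Cry1 rose in the dark in ReverbLDKO livers by 0.89 ± 0.21 (limma, adjusted p = 0.0197), but the difference between feeding groups, −0.57 ± 0.30, did not pass the test (limma, adjusted p = 1). 

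Of 9958 genes, 3 had a difference between phases that differed from that of WT (0.0301% called; 1880 had an unadjusted p under 0.05). Cry1 was among them, and so was Il1b, which encodes the cytokine interleukin 1 beta of activated macrophages. It had 2.47, 3.86 and 1.31 FPKM in the dark and 5.34, 5.29 and 2.76 FPKM in the light in ReverbLDKO livers, against 2.19 to 5.25 FPKM in the dark and 0.469 to 1.45 FPKM in the light in WT livers. The log2 differences were −0.65 ± 0.29 in ReverbLDKO and 1.36 ± 0.25 in WT livers, which differed by −2.01 ± 0.39 (limma, adjusted p = 0.0218). Of 14 immune cell markers, none was called in ReverbLDKO livers (median −0.01) and 5 rose in the dark in WT livers (median 0.69), beside 16.4% of all genes. The part of these markers in the Il1b values was not tested. The adjusted p of Il1b ranged from 0.000479 to 0.245 over the alternatives, and Il1b was called in 14 of 24. The call was lost without any 1 of ReverbLDKO ZT3, ZT6, ZT15 and ZT21 and without any 1 of WT ZT4 replicate 2, ZT16 replicate 2 and ZT20 replicate 1. Cry1 was called in 23 of 24, and lost only when libraries were scaled to the same sum of FPKM (limma, adjusted p = 0.218). With that scaling the median difference over all genes was 0.28 on the log2 scale, against −0.03 without it. WT dark libraries at ZT16 held 4934 and 3045 FPKM of pancreas markers, against 47.1 and 49.7 FPKM at ZT20, and the part of this in the WT values was not tested. The next genes by p were Aatk (−1.14 ± 0.24; limma, adjusted p = 0.0849), Cyp2a4 (4.15 ± 0.91; adjusted p = 0.0922) and Tlcd2 (−1.47 ± 0.33; adjusted p = 0.0975), which did not pass.

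**Figure D2:**
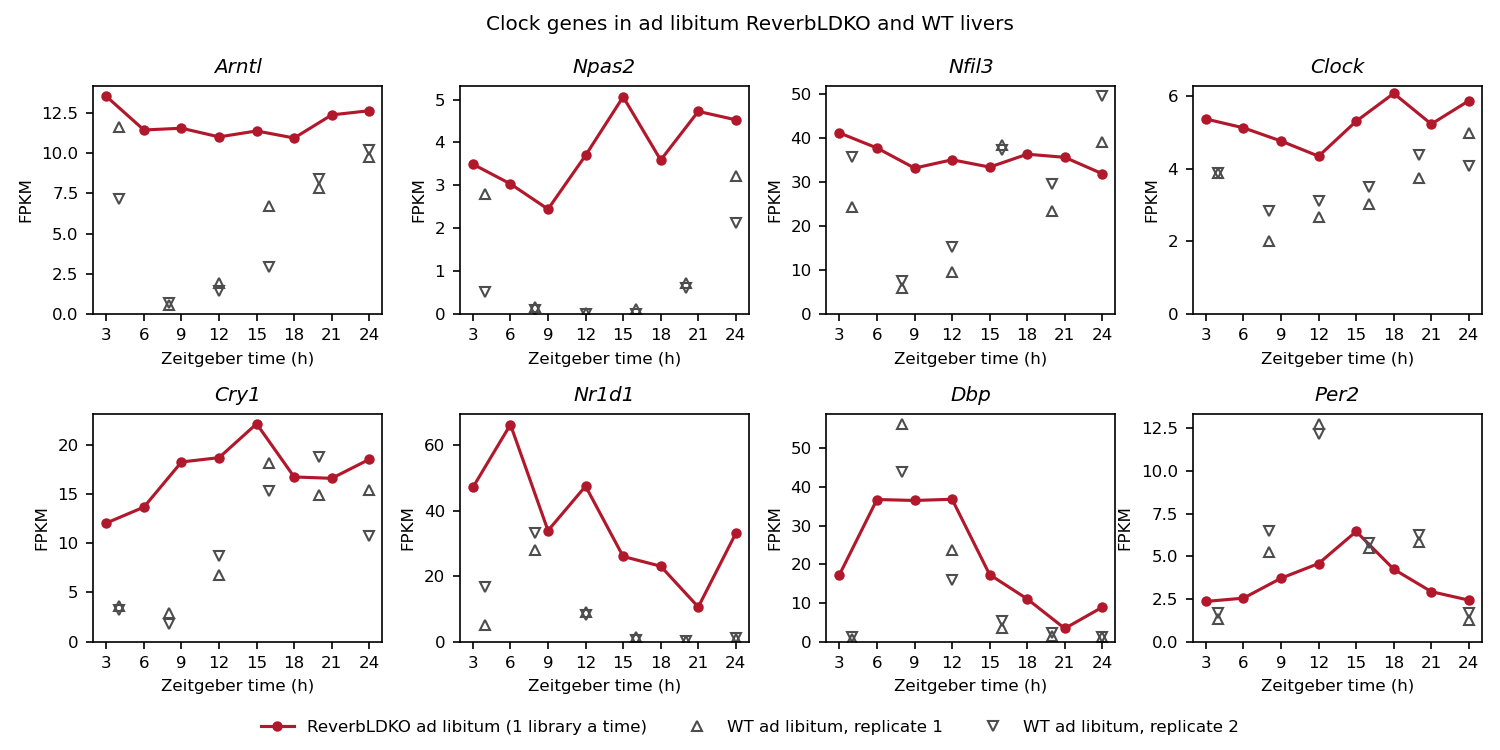
FPKM (vertical axis, from 0) of clock genes by zeitgeber time (horizontal axis, h), in libraries labelled ReverbLDKO fed ad libitum and in WT libraries fed ad libitum, 1 point a library. Cry1 in ReverbLDKO livers does not reach the WT light range of 1.75 to 3.65 FPKM.

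Of 14 measured clock repressors and clock output genes, 3 had all dark below all light libraries and none the reverse, with a median log2 difference of −0.21. The median was −0.40 without ZT3, −0.05 without ZT9 and 0.03 without ZT21. The 3 were both Rev-erb genes and Cry2, the other cryptochrome. Nr1d1 transcripts had 26.0, 23.1 and 10.6 FPKM in the dark and 47.2, 66.4 and 33.95 FPKM in the light, a log2 difference of −1.30 ± 0.52. Nr1d1 fell by 3.62 in WT livers in the dark (limma, adjusted p = 2.47e-06) and by 1.95 in ReverbLDKO livers under restricted feeding (limma, adjusted p = 0.0369), and the difference between ad libitum ReverbLDKO and WT livers, 2.31, did not pass (limma, adjusted p = 0.242). Nr1d2 had 17.8, 16.2 and 10.7 FPKM in the dark and 18.03, 19.6 and 20.6 FPKM in the light. Cry2 had 4.70, 4.44 and 3.74 FPKM in the dark and 5.19, 6.08 and 5.55 FPKM in the light. All 3 sets of values were lowest at ZT21.

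The period genes, which encode partners of the cryptochromes, overlapped between the phases. Per1 had 6.19, 5.98 and 4.70 FPKM in the dark and 4.73, 5.003 and 5.63 FPKM in the light. Per2 had 6.46, 4.25 and 2.93 FPKM in the dark and 2.36, 2.55 and 3.72 FPKM in the light, highest at ZT15, and Per3 lay between 0.755 and 2.28 FPKM. Under restricted feeding both Per1 (1.57; limma, adjusted p = 0.00312) and Per2 (1.604; limma, adjusted p = 0.00352) rose in the dark in ReverbLDKO livers. The differences between the feeding groups, −1.46 for Per1 and −1.12 for Per2, did not pass the test (limma, adjusted p = 1 for both). Dbp, a D-box activator and direct target of CLOCK and BMAL1, had 17.3, 11.0 and 3.39 FPKM in the dark and 17.3, 36.7 and 36.5 FPKM in the light, so that ZT3 was at the level of ZT15. Ciart, another repressor of CLOCK and BMAL1, was highest at ZT9, with 1.95, 0.996 and 0.968 FPKM in the dark and 1.72, 2.18 and 6.54 FPKM in the light. Usp2, Tef and Tspan4 were also highest at ZT9, with 6.97, 24.6 and 43.1 FPKM there. Hlf lay between 8.40 and 11.9 FPKM and Bhlhe40 between 39.9 and 69.3 FPKM, with overlap in both.

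The sequences of promoters that hold a known clock motif show where CLOCK and BMAL1, or Rev-erb and ROR, are known to be able to bind. In the 250 bases before the transcript start given by RefSeq (GRCm38.p6), the E-box CACGTG (read on both strands, the same letters on each) was found at 5 of 12 matched repressor and output genes (Cry1, Ciart, Per1, Tef and Tspan4) and at none of 5 matched activator-side genes, against 1854 of 27025 RefSeq symbols (6.86%). The core Rev-erb and ROR motif TAGGTCA, searched on both strands, was found at 1 of the 5 activator-side genes (Nfil3) and at none of the 12 others, against 2.55% of RefSeq symbols. The windows of Cry1, of the other 2 repressors of the loop with the motif and of Nfil3 are shown on the gene's strand, with the motif in capitals and up to 15 bases on each side. A match is a description of letters and no measure of binding. The windows lie at chr10:85185094-85185129 (Cry1, minus strand), chr3:95882252-95882359 (Ciart, minus strand), chr11:69098768-69098803 (Per1, plus strand) and chr13:52981040-52981066 (Nfil3, minus strand), upstream of a RefSeq start. The Per1 window lies inside the gene as GENCODE M21 places it, at chr11:69095217-69109960.
Cry1: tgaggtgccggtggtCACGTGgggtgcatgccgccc
Ciart: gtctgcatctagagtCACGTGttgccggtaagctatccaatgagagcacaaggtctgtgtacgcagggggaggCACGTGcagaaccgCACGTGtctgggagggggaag
Per1: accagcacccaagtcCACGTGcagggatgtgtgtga
Nfil3: cgcggcgctcggaacTGACCTActaac
Ciart holds the E-box 3 times in this window, and Cry1 and Per1 hold it once. In Nfil3 the capitals are the reverse complement of TAGGTCA.

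Of 26 measured genes of fatty acid oxidation and ketogenesis, 15 had all dark above all light libraries in ReverbLDKO livers fed ad libitum and none all below, against 8.02% and 10.1% of all genes tested. The median log2 difference of the list was 0.27, against −0.02 over all genes tested. None passed the test in the fit of all libraries, and 4 were called higher with libraries weighted by their spread, beside 3.01% of all genes. In WT livers 3 rose and 1 fell in the dark, beside 16.4% and 15.1% of all genes. The list's median was 0.385 in WT livers, −0.02 in ReverbLDKO livers under restricted feeding and −0.24 in CryDKO livers. Cyp4a14 and Cyp4a10, fatty acid omega-hydroxylases and targets of PPAR alpha, had the largest log2 differences of the list. Cyp4a14 had 31.5, 86.1 and 134 FPKM in the dark and 2.68, 7.48 and 16.3 FPKM in the light, a log2 difference of 3.16 ± 1.53. Cyp4a10 had 22.1, 66.3 and 54.4 FPKM in the dark and 2.53, 6.21 and 13.6 FPKM in the light, a log2 difference of 2.62 ± 0.97. Cyp4a14 stood at 25.0 FPKM at ZT12 and 117 FPKM at ZT24. Both genes were lowest at ZT3 and higher at each later light time, and reads may be shared among the near-identical Cyp4a genes.

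Fgf21, a hormone that the liver releases in fasting and on PPAR alpha activation, varied little within each phase. It had 8.11, 8.80 and 8.13 FPKM in the dark (mean 8.35 ± 0.391 SD) and 2.06, 3.16 and 2.45 FPKM in the light (2.56 ± 0.555). The log2 difference of 1.404 did not pass in the fit of all libraries (SE 0.53) and passed in the fit of the 6 libraries (SE 0.12; limma, adjusted p = 0.0232). In WT livers Fgf21 lay between 5.54 and 21.7 FPKM in the dark and 2.19 and 19.6 FPKM in the light. Ehhadh, the peroxisomal bifunctional enzyme, had 88.5, 101 and 92.5 FPKM in the dark and 53.2, 61.1 and 79.7 FPKM in the light. The acyl-CoA thioesterase Acot4 had 6.57, 6.33 and 9.02 FPKM in the dark and 2.93, 4.05 and 4.11 FPKM in the light, and the lipase inhibitor Angptl4 had 36.3, 52.4 and 33.0 FPKM in the dark and 26.7, 22.5 and 27.7 FPKM in the light. In each of these the phases did not overlap.

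Enzymes of mitochondrial beta-oxidation showed smaller separations. Acadl, a long-chain acyl-CoA dehydrogenase, had 116, 122 and 139 FPKM in the dark and 96.1, 112 and 113 FPKM in the light, and the carnitine carrier Slc25a20 had 24.3, 25.3 and 25.9 FPKM in the dark and 17.3, 22.0 and 23.6 FPKM in the light. Hadha, Hadhb and Acadvl also separated, with log2 differences of 0.21, 0.18 and 0.13. Ppara itself, the receptor, overlapped at 27.2, 35.1 and 24.5 FPKM in the dark and 35.8, 30.2 and 23.7 FPKM in the light. Cpt1a, the gate for fatty acids into mitochondria, overlapped at 84.5, 95.3 and 97.1 FPKM in the dark and 86.7, 88.3 and 76.8 FPKM in the light, and its partner Cpt2 at 59.4 to 62.3 FPKM in the dark and 53.0 to 69.8 FPKM in the light. Cpt1a fell by 0.96 in the dark in WT livers (limma, adjusted p = 0.0116), and the difference between genotypes, 1.10, did not pass (limma, adjusted p = 0.242).

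**Figure D3:**
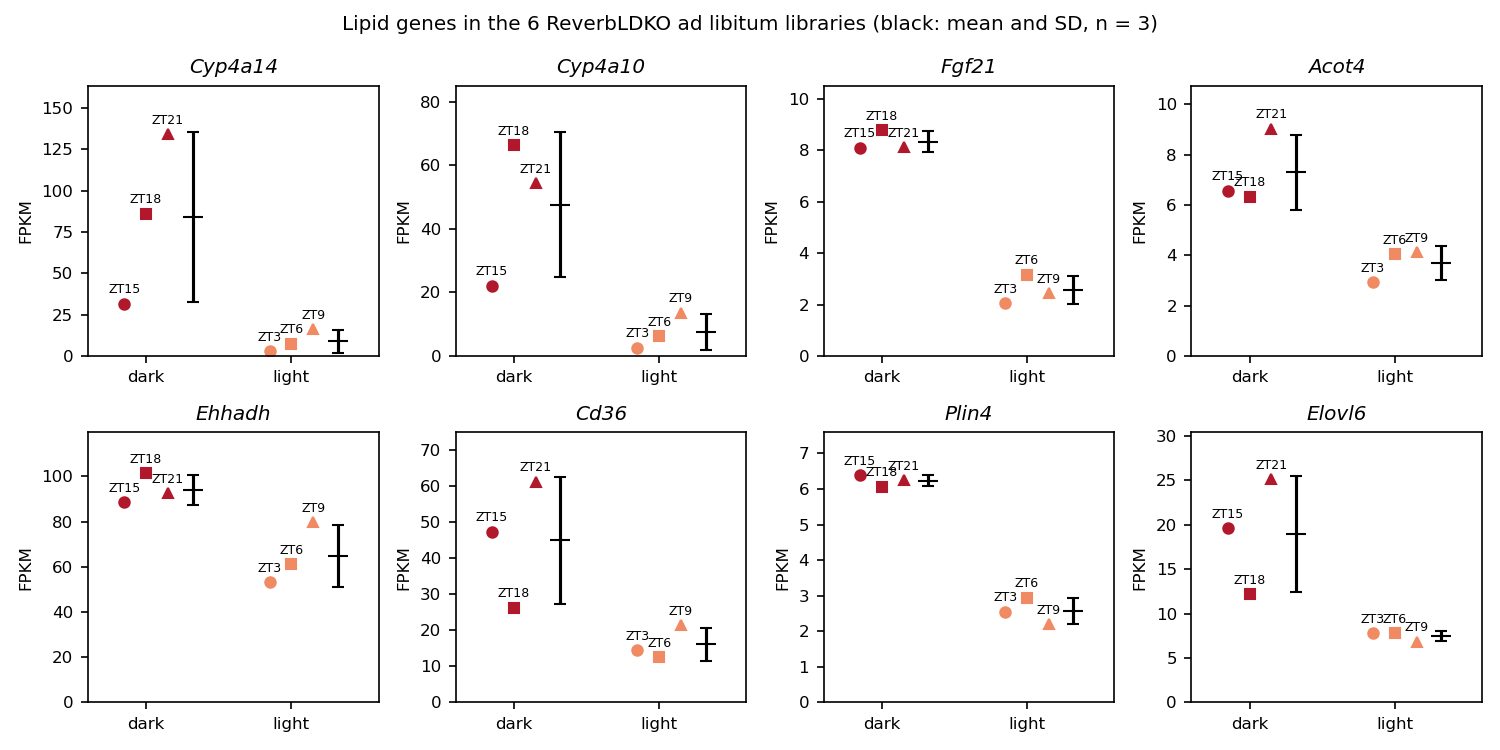
FPKM (vertical axis, from 0) of lipid genes in the 3 dark and the 3 light libraries labelled ReverbLDKO fed ad libitum, 1 point a library and a bar at the mean with the SD. Fgf21 averages 8.35 FPKM in the dark and 2.56 FPKM in the light, and the dark points of Plin4 (6.07 to 6.38 FPKM) are all above its light points (2.20 to 2.94 FPKM).

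Genes of lipid droplets and lipid uptake included members in both directions. Of 13 lipid droplet genes measured, 3 had all dark above all light libraries and 1, the lipase Lipe, all below, with a median log2 difference of 0.28. Without ZT9, 5 were above, beside 14.3% of all genes, and the median was 0.14. In WT livers 5 of the droplet genes rose in the dark (median 0.686), beside 16.4% of all genes. The median was −0.057 in ReverbLDKO livers under restricted feeding and −0.051 in CryDKO livers. Plin4, a droplet coat protein, had 6.38, 6.07 and 6.24 FPKM in the dark and 2.55, 2.94 and 2.20 FPKM in the light. Its log2 difference of 1.03 ± 0.37 did not pass in the fit of all libraries, and passed in the fit of the 6 libraries (limma, adjusted p = 0.026) and with libraries weighted by their spread (limma, adjusted p = 0.00206). Cidec, which fuses droplets, and Hilpda, an inhibitor of the lipase ATGL, separated too, at 1.31 to 3.93 FPKM in the dark and 0.545 to 1.26 FPKM in the light for Cidec and 4.36 to 4.92 FPKM in the dark and 3.02 to 3.82 FPKM in the light for Hilpda. The main liver coat protein gene Plin2 had 147, 150 and 170 FPKM in the dark and 128, 154 and 95.8 FPKM in the light, and Plin3 lay between 15.9 and 26.8 FPKM, both with overlap. Of 15 apolipoprotein and uptake genes, 3 were above and 1, the HDL receptor Scarb1, was below, and without ZT9 5 were above. Cd36, a fatty acid transporter, had 47.4, 26.3 and 61.4 FPKM in the dark and 14.6, 12.6 and 21.4 FPKM in the light, a log2 difference of 1.37 ± 0.53. Apoa4 had 952, 651 and 952 FPKM in the dark and 434, 458 and 411 FPKM in the light, and Mttp, which loads lipid onto apolipoprotein B, 62.3, 62.4 and 60.7 FPKM in the dark and 50.3, 51.5 and 42.4 FPKM in the light. Apoa1 and Apoa2 overlapped, with log2 differences of −0.15 and −0.04.

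Of 18 fatty acid synthesis genes, 3 had all dark above all light libraries and 1 all below, with a median log2 difference of 0.22. The median was 0.04 without ZT9, 0.11 without ZT15 and 0.37 without ZT18, where 5 were above. Elovl6, which elongates palmitate, had 19.6, 12.2 and 25.2 FPKM in the dark and 7.79, 7.81 and 6.85 FPKM in the light, a log2 difference of 1.18 ± 0.37. Acaca, the cytosolic acetyl-CoA carboxylase, had 3.21, 2.15 and 2.85 FPKM in the dark and 2.08, 1.96 and 0.993 FPKM in the light. The desaturase Scd1 had 1562, 1519 and 1354 FPKM in the dark and 1280, 1156 and 865 FPKM in the light. The regulator of the pathway went the other way: Srebf1 had 59.4, 41.1 and 44.9 FPKM in the dark and 70.3, 63.3 and 77.9 FPKM in the light, a log2 difference of −0.54 ± 0.52. Srebf1 fell by 1.48 in the dark in WT livers (limma, adjusted p = 0.0163). Fatty acid synthase, Fasn, had 60.6, 28.3 and 47.7 FPKM in the dark and 28.9, 27.8 and 20.2 FPKM in the light, with ZT18 below ZT3, and Acacb overlapped at 5.70 to 6.59 FPKM in the dark and 1.87 to 8.20 FPKM in the light.

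Of 25 cholesterol synthesis and uptake genes, 1 had all dark above all light libraries and 4 (Ebp, Msmo1, Mvk and Tm7sf2) all below, with a median log2 difference of −0.23. Without ZT9, 19 were below, beside 18.6% of all genes, and the median was −0.46, whereas without ZT18 the median was −0.10. Hmgcs1 had 69.1, 49.8 and 86.5 FPKM in the dark and 94.2, 99.2 and 50.3 FPKM in the light, with overlap between the phases. Mvk, mevalonate kinase, had 4.13, 2.20 and 3.10 FPKM in the dark and 4.86, 4.78 and 4.13 FPKM in the light, where the nearest values, at ZT15 and ZT9, were almost equal.

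Of 17 bile acid genes, 6 had all dark below all light libraries and 1 all above (3 without ZT9 or without ZT15). With libraries weighted by their spread 5 were called lower, beside 3.96% of all genes. Cyp7b1, the oxysterol 7 alpha-hydroxylase of the alternative pathway, had 95.7, 61.0 and 31.3 FPKM in the dark and 143, 112 and 138 FPKM in the light, a log2 difference of −1.18 ± 0.66, which was −0.76 without ZT21. Abcg8, 1 subunit of the sterol exporter, had 19.99, 21.9 and 17.8 FPKM in the dark and 32.9, 30.0 and 49.0 FPKM in the light, and its partner Abcg5 had 28.8, 28.8 and 21.6 FPKM in the dark and 33.1, 30.4 and 58.8 FPKM in the light. Abcg8 fell in the dark in WT livers by 1.78 (limma, adjusted p = 0.000804) and in ReverbLDKO livers under restricted feeding by 1.53 (limma, adjusted p = 0.0229), and its log2 difference of −0.85 ± 0.38 in ad libitum ReverbLDKO livers did not pass. Hsd3b7, an early enzyme of bile acid synthesis, had 63.0, 67.6 and 80.9 FPKM in the dark and 97.5, 109 and 101 FPKM in the light. The repressor Nr0b2 (SHP) had 21.4, 10.8 and 19.8 FPKM in the dark and 32.5, 29.7 and 28.3 FPKM in the light, and the uptake carrier Slc10a1 212, 242 and 227 FPKM in the dark and 255, 329 and 253 FPKM in the light. The bile acid receptor Nr1h4 (FXR) was the member with the reverse order, at 48.1, 50.6 and 54.7 FPKM in the dark and 38.4, 45.7 and 42.5 FPKM in the light. Cyp7a1, the rate-limiting enzyme of the classic pathway, had 18.5, 12.4 and 11.9 FPKM in the dark and 4.12, 9.11 and 15.4 FPKM in the light, so that ZT9 lay above 2 dark libraries. Cyp8b1 and Cyp27a1 overlapped, with log2 differences of 0.18 and −0.08.

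Of 18 genes of xenobiotic metabolism, 5 had all dark above all light libraries and 1, the aldehyde oxidase Aox3, all below, with a median log2 difference of 0.43. Without ZT9 12 were above and without ZT18 9, beside 14.3% and 12.7% of all genes. With libraries weighted by their spread, 7 were called higher in the dark and none lower, beside 3.01% and 3.96% of all genes. Cyp3a11, the main mouse CYP3A drug-oxidising enzyme, had 48.7, 31.9 and 42.3 FPKM in the dark and 6.00, 4.25 and 12.3 FPKM in the light, a log2 difference of 2.39 ± 0.59 that did not pass (limma, adjusted p = 0.779). The ZT12 library, at 43.7 FPKM, was within the dark range. In CryDKO livers Cyp3a11 stood at 274 to 669 FPKM in the dark and 665 to 870 FPKM in the light, and in ReverbLDKO livers under restricted feeding at 8.19 to 32.2 FPKM in the dark and 24.1 to 25.6 FPKM in the light. Alas1, the first enzyme of heme synthesis, had 133, 98.5 and 98.8 FPKM in the dark and 29.4, 27.9 and 85.2 FPKM in the light, where ZT9 was near the dark libraries. Alas1 rose by 2.58 in the dark under restricted feeding (limma, adjusted p = 0.0122). Nr1i3 (CAR), a receptor for xenobiotics, had 41.1, 40.9 and 45.2 FPKM in the dark and 20.48, 29.3 and 27.7 FPKM in the light. Ugt1a1, which conjugates bilirubin, had 43.4, 53.6 and 55.9 FPKM in the dark and 34.2, 36.0 and 33.2 FPKM in the light, and the exporter Abcc3 had 15.3, 15.03 and 17.2 FPKM in the dark and 8.62, 9.82 and 10.03 FPKM in the light. Cyp1a2 and Cyp2a5 overlapped, at 85.5 to 174 FPKM in the dark and 150 to 185 FPKM in the light for Cyp1a2 and 565 to 712 FPKM in the dark and 333 to 880 FPKM in the light for Cyp2a5.

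Wide dark minus light differences were measured in genes known to differ between male and female mouse liver under the control of growth hormone pulses. Of 15 female-biased genes, 7 passed the filter on low values. Cyp2a4 and Cyp2b13 passed it only through these livers, with means of 0.498 and 0.812 FPKM over the series without the 8 ad libitum ReverbLDKO libraries. No count or median of the list is therefore given. Only the members with the widest differences are described, and the smallest log2 difference of the 7 was 0.351. None of the 7 passed the test in the fit of all libraries. Cyp2a4, a testosterone 15 alpha-hydroxylase, had 151, 92.9 and 173 FPKM in the dark and 3.07, 6.01 and 83.3 FPKM in the light, a log2 difference of 3.34 ± 0.68 (limma, adjusted p = 0.185). The difference was 4.66 without ZT9, which held the highest light value, and 2.48 without ZT3, which held the lowest. It passed without ZT9 (limma, adjusted p = 2.95e-05) and not without ZT3. The call without ZT9 came from leaving out the light library nearest to the dark ones, so no support is drawn from it. Cyp2b9 had 54.1, 26.7 and 156 FPKM in the dark and 1.19, 5.46 and 11.8 FPKM in the light. In WT livers Cyp2b9 lay between 0.791 and 13.1 FPKM in the dark and 0.0426 and 163 FPKM in the light. In CryDKO livers it lay between 31.3 and 56.1 FPKM in the dark and 101 and 169 FPKM in the light. Cyp2b13 had 2.57, 1.02 and 7.81 FPKM in the dark and 0.0284, 0.254 and 0.952 FPKM in the light in ReverbLDKO livers. The nearest dark and light values of Cyp2b13, at ZT18 and ZT9, were almost equal. These cytochromes have close paralogs whose reads the counting may have split. 

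Of 21 male-biased genes, 6 had all dark below all light libraries and none above, with a median log2 difference of −0.79, and none passed the test in the fit of all libraries. When 1 library at a time was left out, between 6 and 18 were below, the 18 without ZT15, beside 12.8% to 19.7% of all genes. The median was −1.20 without ZT15 and −0.51 without ZT21. The male-biased genes named here were lowest, among the 6 libraries, at ZT21. Hsd3b5, a steroid reductase, had 80.7, 89.99 and 16.1 FPKM in the dark and 217, 197 and 172 FPKM in the light, a log2 difference of −1.96 ± 1.12, which was −1.18 without ZT21. Moxd1 had 48.8, 23.1 and 0.332 FPKM in the dark and 62.0, 42.8 and 52.0 FPKM in the light, and the protease inhibitor Serpina1e 1088, 496 and 37.7 FPKM in the dark and 1815, 891 and 2296 FPKM in the light. Both overlapped, since ZT15 lay above ZT6. Mup7, a major urinary protein that carries pheromones, had 1560, 523 and 85.0 FPKM in the dark and 2996, 1767 and 1474 FPKM in the light, where ZT9 lay below ZT15. Cyp2d9 had 513, 511 and 372 FPKM in the dark and 565, 582 and 515 FPKM in the light, and Cyp4a12a overlapped at 13.9, 7.59 and 2.43 FPKM in the dark and 11.1, 15.01 and 8.89 FPKM in the light. The ZT24 library had 1.06 FPKM of Moxd1 and 158 FPKM of Cyp2b9. The median of the male-biased list was −0.205 in ReverbLDKO livers under restricted feeding, 0.76 in CryDKO livers and 0.49 in WT livers.

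**Figure D4:**
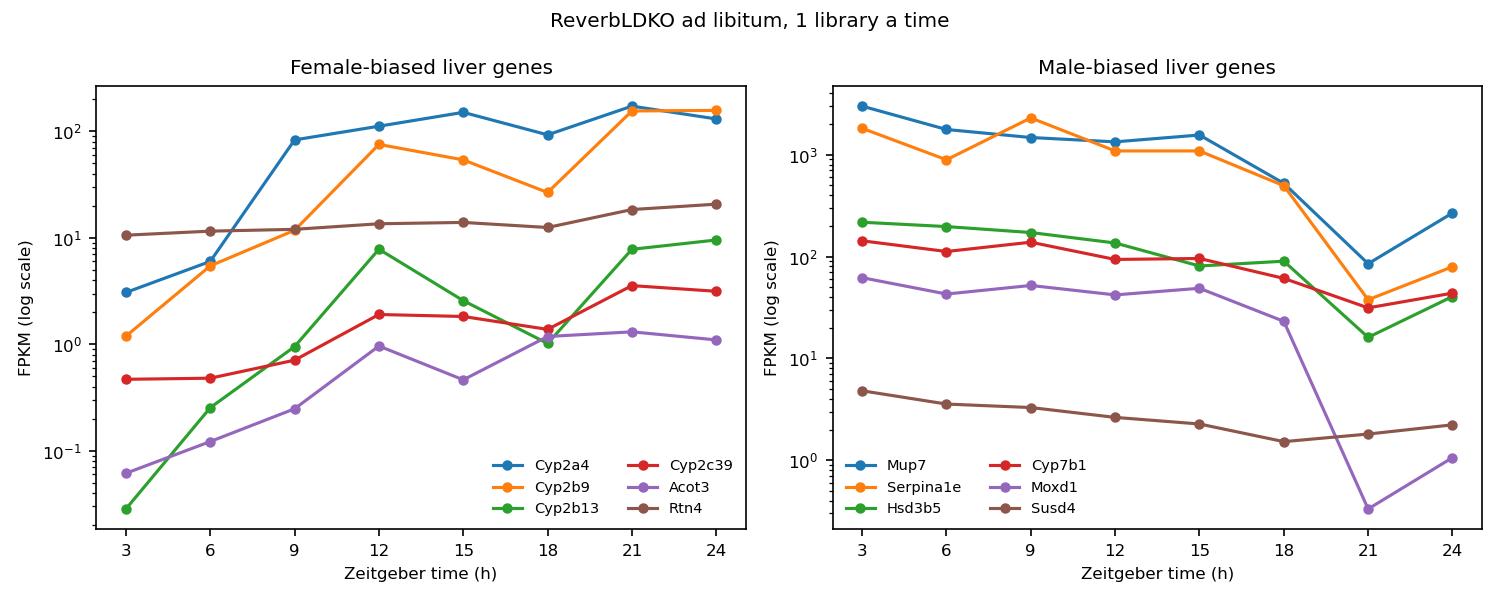
FPKM (vertical axis, log scale) of female-biased and male-biased liver genes by zeitgeber time (horizontal axis, h) in the libraries labelled ReverbLDKO fed ad libitum, ZT12 and ZT24 included, 1 line a gene and 1 point a library. Cyp2b9 climbs to 156 FPKM at ZT21, the time at which Moxd1 is lowest, 0.332 FPKM.

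Of 15 heat shock genes, 5 had all dark above all light libraries and none below, with a median log2 difference of 0.59. Without ZT9 10 were above and without ZT21 13, beside 14.3% and 14.1% of all genes. With libraries weighted by their spread, 9 were called higher, beside 3.01% of all genes. In WT livers 10 rose in the dark (median 0.72), beside 16.4% of all genes. In ReverbLDKO livers under restricted feeding 7 rose (median 1.02), beside 0.763% of all genes. Hsp90aa1, the inducible HSP90, had 15.6, 14.1 and 11.4 FPKM in the dark and 8.77, 7.07 and 6.32 FPKM in the light, and Hsph1, a nucleotide exchange factor of HSP70, had 16.9, 14.9 and 7.43 FPKM in the dark and 7.77, 4.64 and 5.94 FPKM in the light. The constitutive HSP70 gene Hspa8 had 71.4, 56.8 and 29.8 FPKM in the dark and 34.5, 26.8 and 34.5 FPKM in the light. For Hsph1 and Hspa8 the ZT21 library was within the light range. The inducible Hspa1b had 4.39, 2.78 and 0.502 FPKM in the dark and 0.684, 0.538 and 0.672 FPKM in the light, and the factor gene Hsf1 had 5.20 to 6.04 FPKM in the dark and 4.67 to 5.23 FPKM in the light. Cirbp, induced by cold, had the reverse order at 2.90, 3.18 and 3.71 FPKM in the dark and 5.11, 7.10 and 5.52 FPKM in the light. It fell in the dark in WT livers by 0.66 (limma, adjusted p = 0.0282) and under restricted feeding by 1.23 (limma, adjusted p = 0.00765), beside a log2 difference of −0.69 ± 0.26 in the ad libitum ReverbLDKO livers. The other of the 2 measured cold-inducible genes overlapped between the phases, with a log2 difference of 0.17. Of 18 chaperones of the endoplasmic reticulum, 7 were above and none below, with a median of 0.16. Without ZT3 12 were above, beside 12.7% of all genes, and without ZT18 the median was 0.09. Hspa5 (BiP) had 241, 245 and 168 FPKM in the dark and 151, 134 and 149 FPKM in the light, and Hsp90b1 had 198, 233 and 193 FPKM in the dark and 192, 181 and 179 FPKM in the light. Pdia4 also separated, with a log2 difference of 0.32. The median of these 18 chaperones was higher in the other groups. It was 0.382 in WT livers, 0.537 in ReverbLDKO livers under restricted feeding and 0.624 in CryDKO livers.

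Of 16 cytosolic ribosomal protein genes, 5 had all dark below all light libraries and none above (median −0.16), against 10.1% of all genes below. Without ZT3 12 were below, beside 16.9% of all genes, and without ZT18 9. In WT livers 10 rose in the dark (median 0.72), beside 16.4% of all genes. Rplp0 had 81.3, 83.9 and 79.0 FPKM in the dark and 89.7, 89.8 and 99.8 FPKM in the light. Of 11 glucocorticoid targets, 1 was above and 3 below, and the median of −0.15 was 0.01 without ZT9. Under restricted feeding 4 rose (median 1.65), beside 0.763% of all genes. Dusp1, a phosphatase of this list, had 14.6, 14.9 and 15.3 FPKM in the dark and 22.5, 26.6 and 31.7 FPKM in the light. Of 22 acute phase genes 2 were above (5 without ZT3) and 2 below (7 without ZT18). Among them Hamp, the iron hormone hepcidin, had 639, 612 and 199 FPKM in the dark and 1402, 758 and 1432 FPKM in the light, and Lcn2 had 19.2, 20.4 and 33.2 FPKM in the dark and 17.6, 9.08 and 5.43 FPKM in the light. Of 19 glucose and glycogen genes, 2 were above (4 without ZT6 or without ZT18) and 1 below (3 without ZT21). Of 20 urea cycle and amino acid genes none was above (7 without ZT9) and 2 were below (4 without ZT6, ZT15 or ZT21), and of 14 genes of NAD synthesis and use 2 were below. The 10 cell cycle genes all overlapped with the 6 libraries, and 2 were above and 2 below without ZT9.

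**Figure D5:**
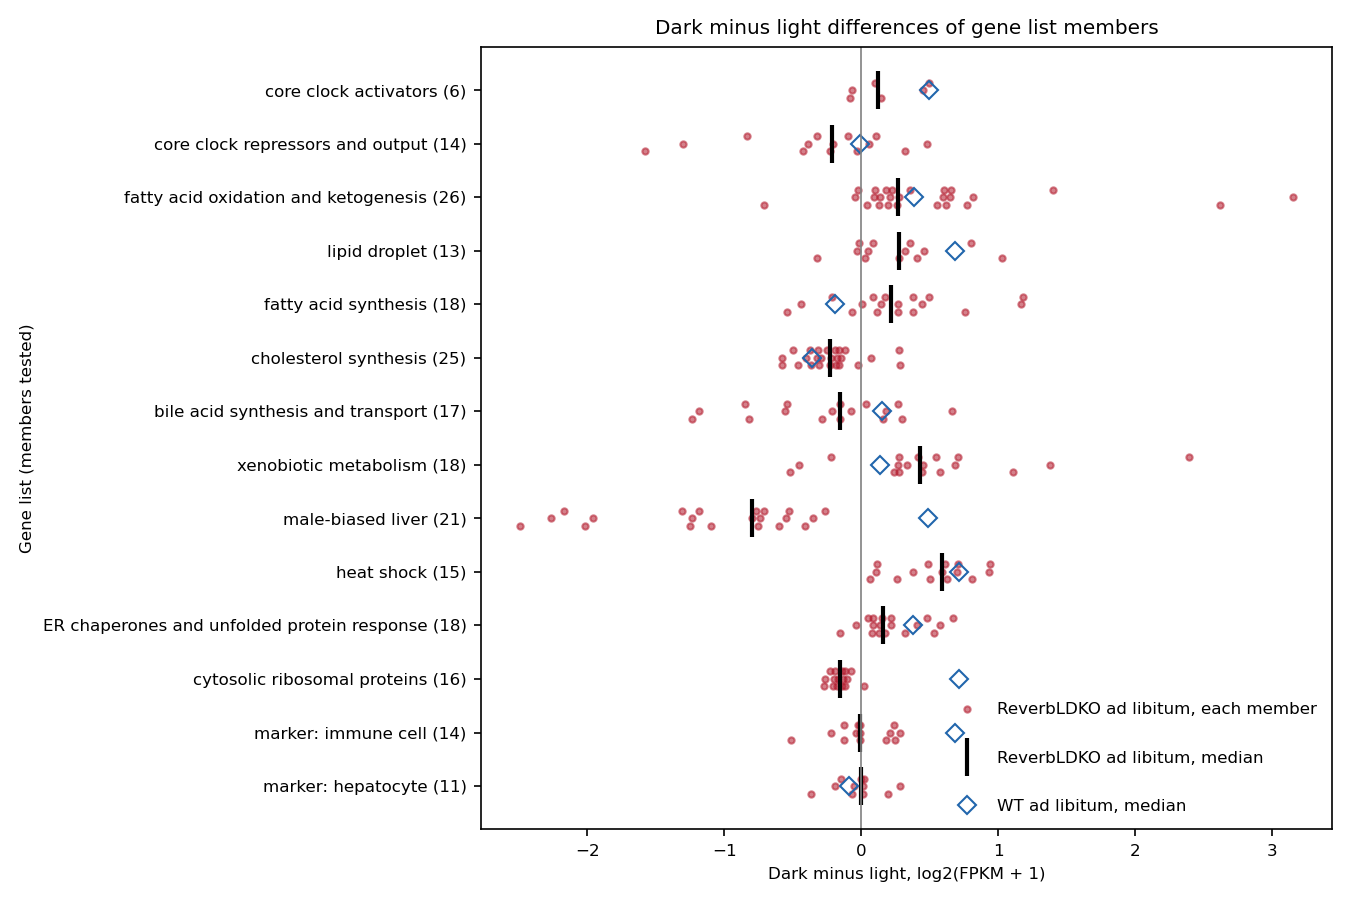
Dark minus light difference in log2(FPKM + 1) (horizontal axis) of the members of gene lists (rows, with the number of members tested) in ReverbLDKO livers fed ad libitum, 1 point a gene, with a bar at the ReverbLDKO median and a diamond at the WT median. The ReverbLDKO medians of heat shock genes (0.59) and xenobiotic genes (0.43) lie to the right of 0, and that of male-biased genes (−0.79) to the left.

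Both of the other genes called in the fit of the 6 libraries lie outside these lists and were chosen after their values were seen. Lrrc28, a gene of little-known function, had 8.81, 8.17 and 8.22 FPKM in the dark and 4.09, 3.91 and 4.24 FPKM in the light, a log2 difference of 0.89 ± 0.20 in the fit of all libraries and an adjusted p of 0.0232 in the limma fit of the 6. Lrrc28 rose in the dark under restricted feeding as well, by 0.87 (limma, adjusted p = 0.0106). Fam124a had 5.89, 6.44 and 5.34 FPKM in the dark and 2.60, 2.52 and 2.96 FPKM in the light (adjusted p = 0.0411 in the limma fit of the 6). Its ZT12 and ZT24 libraries, at 3.15 and 3.20 FPKM, were nearer to the light level, whereas Fgf21 had 5.71 and 8.26 FPKM and Plin4 6.54 and 5.24 FPKM at these times.

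Feeding pattern and the other clock mutant were compared by testing the difference of differences, which share the 6 ad libitum libraries. No gene passed between ad libitum and restricted ReverbLDKO livers (0% called; 296 had an unadjusted p under 0.05), and none between ReverbLDKO and CryDKO livers (0% called; 232 had an unadjusted p under 0.05). The smallest p between feeding groups belonged to Lrit1, a difference of 1.61 ± 0.35, and Dnajc28, 0.98 ± 0.22 (limma, adjusted p = 0.247 for both), followed by Gas7, Pcmtd2, Per1 and Tat. Dark minus light, Lrit1 was at 0.32 ad libitum and −1.29 under restricted feeding, and Dnajc28 at 0.145 and −0.839. Tat, a glucocorticoid-responsive enzyme of tyrosine breakdown, had 651, 656 and 669 FPKM in the dark and 759, 564 and 922 FPKM in the light ad libitum, and rose by 1.88 in the dark under restricted feeding (limma, adjusted p = 0.0115). Between genotypes the smallest p belonged to Cyp2b13, a difference of 4.22 ± 0.84 (limma, adjusted p = 0.123), with Il1b, Aldh1a7, Cyp3a11 and Mrgprb11 among the next. The dark minus light difference of Cyp2b13 was 1.55 in ReverbLDKO and −2.67 in CryDKO livers.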

How the data were processed

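Liver RNA was extracted with the RNeasy Mini kit and made into TruSeq Stranded mRNA HT libraries from 1 ug of RNA, per the labels' protocols. STAR, featureCounts, DESeq2 and GRCm38 are named per the submitters' processing notes, without versions, order or the strand setting of counting, so overlapping and antisense genes cannot be told apart, and reads of close paralogs (Mup, Cyp2a, Cyp2b, Cyp3a, Cyp4a, Acot, Ugt2b, Serpina1, Hba) may be split. The authors deposited 1 table of FPKM values for 67 libraries and 45808 gene rows, with no counts. From it, log2(FPKM + 1) was computed, and the 9958 genes averaging 1 FPKM or more across the series were kept. The 27 rows whose symbol had become a date and the 2 that repeated a symbol were not removed before this filter. A mean for each genotype, feeding and time class was then fitted with limma 3.58.1 in R 4.3.3. Contrasts were dark minus light and their differences, two-sided, called at a Benjamini-Hochberg adjusted p under 0.05. Fold changes on this scale understate changes of low genes. Depth was recovered from low values, of which 84.2% to 88.3% per library were whole reads within 0.1 read. Precision is limited by 1 library per time. Gene positions come from GENCODE M21, to which 41828 rows matched, and promoters from RefSeq (GRCm38.p6). Figures were drawn with matplotlib 3.10.9 in Python 3.11.15.

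Named are the core clock genes, list members with their values, the 6 genes with the smallest p for each difference, and the genes called in the fit of the 6 libraries. Predicted genes were counted and not named. A few genes that enter the counts are not reported here by name. The groups, gene lists and tests were chosen with earlier results of these data known. Alternatives were another pseudocount, low-value filter, scaling or set of libraries, library weights, a GC and length correction, limma voom on recovered reads, a replicate block for WT, and each library left out. WT replicate numbers do not pair libraries: over 15 pairs of times the deviations of same-numbered libraries correlated at −0.2 to 0.64, with 4 pairs below 0.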

Additional observations from a re-analysis of the deposited data

Results flagged for a closer look

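The dark minus light difference of Cry1 and Il1b differed between ReverbLDKO and WT livers fed ad libitum by a test of the difference itself in limma: −1.89 for Cry1 and −2.01 for Il1b on the log2(FPKM + 1) scale. In 5 of 52 groups of 4 WT libraries, 1 library stood apart from the others by more than 0.829 of the range of the group, which chance gives in about 1 in 20 groups. Npas2 had 2.80 FPKM in WT light ZT4 replicate 1, Tspan4 173 FPKM in WT dark ZT16 replicate 2 and Aatk 3.17 FPKM in WT dark ZT20 replicate 2. WT light ZT8 replicate 1 had 11.9 FPKM of Cyp2a4 and 273 FPKM of Cyp4a14.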

How the results depend on the processing

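The count of genes called between dark and light in ReverbLDKO livers fed ad libitum, 0, was 16 with no filter on low values, 694 with library weights, 4 with the 6 libraries alone, and 0 to 1 with each library left out. The 1 was Cyp2a4 without ZT9, its highest light value, and this gene passed the filter on low values only through these livers. WT livers gave 1440 with library weights and 168 to 4128 with each library left out, and 660 higher and 2506 lower when scaled to the same sum. ReverbLDKO livers under restricted feeding gave 762 with library weights, 417 with the GC and length correction and 1017 with the 16 ReverbLDKO libraries alone. CryDKO livers gave 5 with a pseudocount of 0.1, 32 with no filter, 1 with the same sum and 364 with library weights. The difference from WT was called for 8 genes with no filter, 0 with the same sum, 240 with library weights, 7 with the GC and length correction, 7 with ZT24 and ZT12 added to dark and light, and 2 to 6 with each library left out. The difference from restricted feeding gave 2 with no filter, 12 with library weights, 3 with ZT24 and ZT12 added and 0 to 1 with each library left out, and the difference from CryDKO 3 with no filter, 291 with library weights and 0 to 3 with each library left out. The cause of these changes was not tested. With a replicate block for WT, 3807 genes were called in WT livers, 4 for the difference from WT and 0 in ReverbLDKO livers fed ad libitum. In limma voom on recovered reads, ReverbLDKO livers fed ad libitum gave 0. Near-zero log2 differences of clock genes changed sign: Per1 to −0.231 and Tspan4 to −0.193 with ZT24 and ZT12 added, Hlf to 0.023 with the same sum, and Usp2 to 0.206 with library weights. With each library left out, Arntl ranged from −0.112 to 0.006, Per3 from −0.399 to 0.021, Tef from −0.423 to 0.085, Hlf from −0.156 to 0.072, Usp2 from −0.488 to 0.403 and Tspan4 from −0.075 to 0.267. Same-sum scaling moved the median log2 difference of all genes to −0.24 in WT livers and −0.14 under restricted feeding.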

Other observations

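Some of the widest separations between the phases in ReverbLDKO livers fed ad libitum lie outside the gene lists. These genes were chosen after their values were seen, and none passed the test. Acnat2, a peroxisomal acyl-CoA amino acid N-acyltransferase, had 46.9, 40.8 and 72.8 FPKM at ZT15, ZT18 and ZT21 and 15.4, 18.4 and 22.9 FPKM at ZT3, ZT6 and ZT9. Ces1d, a carboxylesterase with triglyceride hydrolase activity, had 140, 131 and 123 FPKM in the dark and 35.3, 37.8 and 94.0 FPKM in the light. Nudt7, a peroxisomal hydrolase of coenzyme A, had the reverse order, at 89.8, 81.8 and 62.3 FPKM in the dark and 175, 181 and 173 FPKM in the light. The light libraries of Nudt7 were close together, and every dark library was below them. Tff3, a trefoil peptide, had 13.3, 8.50 and 1.33 FPKM in the dark and 22.3, 20.3 and 21.2 FPKM in the light, while its ZT12 library, at 3.75 FPKM, lay within the dark range. Ly6d had 60.7, 9.39 and 48.0 FPKM in the dark and 3.72, 4.91 and 5.60 FPKM in the light, and Lgals1, a galectin, 69.2, 24.2 and 67.04 FPKM in the dark and 15.9, 19.3 and 21.1 FPKM in the light. In both, ZT18 was the lowest dark library and nearest to the light ones. Acnat2, Ces1d and Lgals1 also rose in the dark in WT livers, by 1.465, 2.434 and 1.302 (limma, adjusted p = 0.00845, 0.00117 and 0.039). Nudt7, Tff3 and Ly6d did not pass there. Acnat2 rose by 1.981 in ReverbLDKO livers under restricted feeding too (limma, adjusted p = 0.011).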
